A study of Mus musculus with 4 samples.

Results

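The genes described here encode the core machinery of autophagy and mitophagy, chosen by gene symbol from a list of 35. Of these, 34 had a probe set under that symbol among 23185 named genes, and 1 listed cargo receptor was not analysed here. All 34 also lay among the 13911 genes whose level was high enough for testing. The RNA came from E14.5 mouse fetal livers, from cells taken with magnetic beads against Ter119, an antigen found on maturing red cells. Of the 4 arrays, 2 held RNA precipitated with an antibody against Cpeb4 (the IP, biological replicates 1 and 2), 1 held RNA precipitated with rabbit IgG, and 1 held total input RNA. Cpeb4 belongs to the CPEB proteins, which bind short U-rich elements in mRNA and control its translation. No group carried an engineered allele or a drug in the labels, which give no strain and do not say how many livers were pooled or whether the controls shared cells with either IP replicate. The comparison asks whether an mRNA exceeded both control arrays after precipitation.

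Autophagy encloses cytoplasm or organelles in a double membrane, the autophagosome, which then fuses with the lysosome. A kinase complex and a lipid kinase complex start the membrane, lipid carriers enlarge it, and a conjugation system resembling that of ubiquitin fixes Atg8-family proteins to it, where cargo receptors bind them. Maturing red cells use this route to clear their mitochondria, and Bnip3l (Nix) is the receptor best known for that step.

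With the deposited values the autophagy and mitophagy genes mostly lay above IgG and below input, though the direction against IgG turned in 12 of 34 when the arrays were quantile-normalized again. In both IP replicates 0 of 34 members exceeded IgG and input by 2-fold or more, a count near the share of 2.49% over all tested genes. Against input alone 0 members were 2-fold higher, where 4.04% of tested genes were. Against IgG 13 members rose, 38.2%, and 2 fell, 5.88% (limma, adjusted p below 0.05), where 36.1% of all tested genes rose and 21.2% fell. Of tested genes at or above the 60th percentile of level, where 32 of the 34 members lie, 51.3% rose and 11.6% fell. Against input none rose and 9 fell, 26.5%, where 10.2% of all tested genes rose and 15.9% fell. Of the tested genes at or above that 60th percentile, 12.9% rose and 22% fell against input. In 19 of 34 members both IP replicates were above IgG and below input, a place held by 22.2% of tested genes. The 5 members above both controls in both replicates, by any amount, were Becn1, Pik3r4, Atg2b, Atg10 and Bnip3, where 20.5% of tested genes lay above both. None of these 5 passed the test against input. The 3 members below both controls in both replicates were Ulk1, Atg9a and Atg4d, 8.82% where 11.9% of tested genes lay below both.

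**Figure D1:**
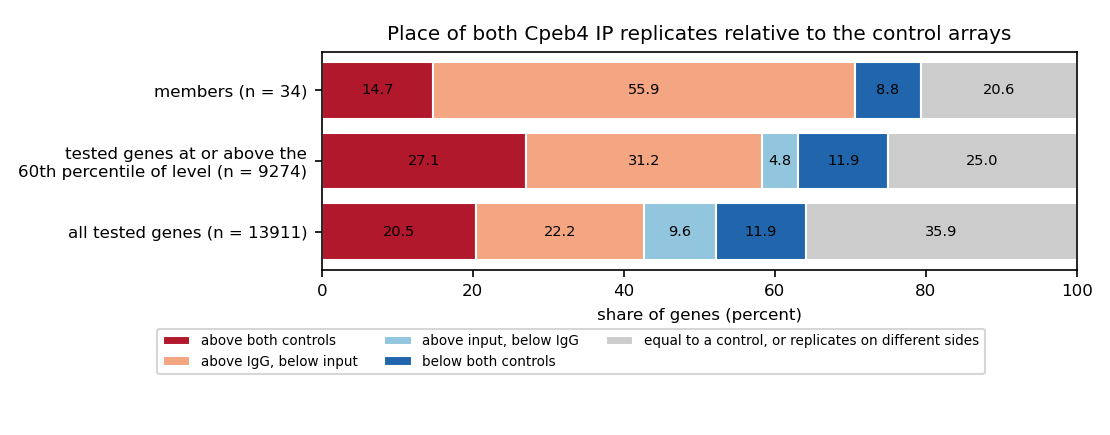
Bars give the share of genes, in percent, by the place of both Cpeb4 IP replicates relative to the single IgG and input arrays, for the 34 members, for tested genes of higher level and for all tested genes. The members' largest share, 55.9%, lay above IgG and below input, against 31.2% of the higher-level genes and 22.2% of all tested genes.

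The arrays themselves differed. Over all probe sets the SD of the values was 2.05 and 2.07 on the IP arrays, 1.74 on the IgG array and 2.13 on the input array, the narrowest spread being that of IgG. Among tested genes at or above the 60th percentile of level the median difference between IP and IgG was 0.47 on the log2 scale, against 0.08 over all tested genes and 0.30 over the members. After quantile normalization of the 4 arrays again, the members' median was -0.22 and the split of calls against IgG became 12 higher and 13 lower, 35.3% and 38.2%, where 31.4% of all tested genes were called higher and 29.6% lower with a median of 0.03. Against input the members' median was -0.20, beside -0.01 over all tested genes, and it was -0.06 after that normalization.

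Equal values were common. Both IP arrays held exactly the same value in 15 members, 44.1%, where 21.8% of tested genes were tied. In Atg4c, Atg7, Atg12 and Pik3c3 the IgG array held that value as well, and in Atg3 the input array did. Equal replicate values give no measure of biological spread. For each of these 15 members limma gave the same SE, 0.117. It combined the spread of other genes with a spread of 0 for the gene itself. That 0 made the SE smaller than the spread of other genes alone would give, and with it the adjusted p. The calls of tied members are therefore less certain than their adjusted p reads. The widest gap between IP replicates among members was 0.50, in Atg10.

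The cells carried the red cell label in their RNA. Of 12 erythroblast markers listed, 8 had a probe set, and all 8 were above the array median on every array, with medians of 10.15 and 10.19 in the IP, 10.35 in IgG and 10.94 in input and summed linear levels of 14596 and 14724 in the IP, 13610 in IgG and 17332 in input. For each other cell type the summed level was above both controls on the IP arrays, though the IP medians of macrophage and lymphoid markers lay below IgG and those of endothelial markers on either side of it. The summed linear level of 9 macrophage markers was 433 and 501 in the IP, 288 in IgG and 199.8 in input, with medians of 4.88 on both IP arrays, 5.01 in IgG and 4.29 in input. For 6 megakaryocyte markers it was 4562 and 4765 in the IP, 2068 in IgG and 991 in input, and for 8 neutrophil markers 2893 and 2892, 1913 and 792 in the same order. For 7 hepatocyte markers the sums were 537 and 624 in the IP, 241 in IgG and 130.2 in input. The sums for 3 progenitor markers were 424 and 430 in the IP, 278 in IgG and 179 in input. Endothelial and lymphoid markers, with 1 of 5 and 1 of 3 above the array median, summed to at most 173 and 104 in the IP, 96.7 and 68.7 in IgG, and 83.2 and 55.8 in input. The lymphoid median was 3.42 on both IP arrays, 4.22 in IgG and 3.24 in input. No marker is listed at 0 on this scale. The part of these cells in the members' differences was not tested. The IP and IgG arrays held precipitated RNA, so their marker sums do not give the number of cells of a type. In the input, a bulk RNA, fewer cells of a type and less RNA per cell cannot be told apart.

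**Figure D2:**
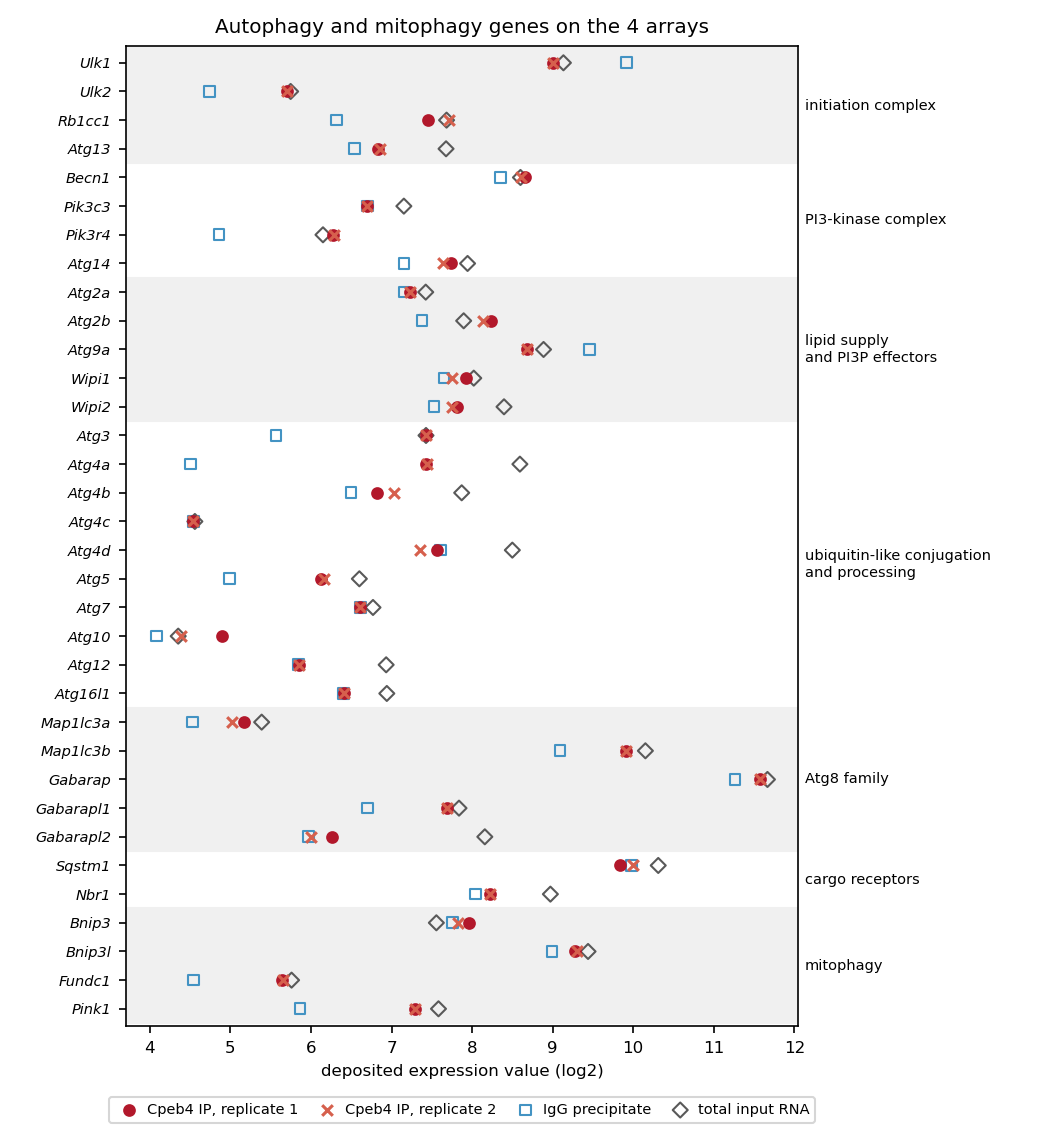
Each row is a member, grouped by role, and symbols give its deposited log2 expression value on the 2 Cpeb4 IP arrays, the IgG array and the input array. In most rows the IgG square lies left of the IP symbols and the input diamond lies right of them; Ulk1 and Atg9a have the IgG square on the right. Values of different genes come from different probes and are not to be ranked.

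The initiation complex, in which the kinases Ulk1 and Ulk2 work with the scaffold Rb1cc1 (Fip200) and the adaptor Atg13, moved in both directions against IgG. Of its 4 genes 2 rose and 1 fell, where 36.1% of tested genes rose and 21.2% fell. Under quantile normalization again 1 rose and 2 fell, where 31.4% and 29.6% of tested genes did. Rb1cc1 had 7.45 and 7.71 in the IP, against 6.32 in IgG and 7.68 in input. The IP replicates lay above IgG and on either side of input. Rb1cc1 rose over IgG by 1.26 ± 0.16 (log2, SE, limma adjusted p = 0.00526), a call that did not hold after quantile normalization again (difference 0.62, limma adjusted p = 0.0545) or with ties kept in the prior (limma adjusted p = 0.0839). Its difference from input was -0.10. Ulk1 had 8.999 on both IP arrays, against 9.91 in IgG and 9.13 in input. Here the IgG array was the high one: Ulk1 fell by 0.91 on the log2 scale against IgG (SE 0.12, limma adjusted p = 0.00527), and its difference from input of -0.13 did not pass. Ulk2 rose by 0.97 over IgG, just short of 2-fold. Atg13 fell by 0.83 on the log2 scale against input, the only one of the 4 to pass there. Its difference from IgG was 0.31, which did not pass, and -0.34 after quantile normalization again, where it fell (limma adjusted p = 0.0267).

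In the class III PI3-kinase complex, which makes the lipid PI3P on the forming membrane, 2 of 4 genes rose over IgG and none passed against input. Among all tested genes 36.1% rose over IgG, and 10.2% rose and 15.9% fell against input. Pik3r4 (Vps15), the regulatory kinase-like subunit, had 6.27 and 6.29 in the IP, against 4.86 in IgG and 6.15 in input. The IgG array stood apart and the other arrays lay close together. Pik3r4 rose over IgG by 1.43 ± 0.12 (2.69-fold, limma adjusted p = 0.00222) and differed from input by 0.13 (limma adjusted p = 0.539). Pik3c3 (Vps34), the catalytic subunit, held 6.70 on both IP arrays and on the IgG array, against 7.15 in input. Its difference from input was -0.45 (limma adjusted p = 0.0607). Pik3c3 fell against IgG after quantile normalization again (difference -0.65, limma adjusted p = 0.0135). Atg14, the subunit that directs the complex to autophagy, rose by 0.54 over IgG, a call lost after quantile normalization again (difference -0.21, limma adjusted p = 0.143). Becn1, the Beclin scaffold, passed against neither control with the deposited values, with differences of 0.28 from IgG and 0.03 from input. The first turned to -0.36 after quantile normalization again, where Becn1 fell (limma adjusted p = 0.0373).

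Among lipid carriers and readers of PI3P, the lipid transfer protein Atg2b and the lipid scramblase Atg9a lay on opposite sides of IgG. Atg2b had 8.23 and 8.14 in the IP, against 7.38 in IgG and 7.90 in input, so both replicates were above both controls. Its rise over IgG was 0.81 ± 0.12 (limma adjusted p = 0.00807), a call lost after quantile normalization again (difference 0.07, limma adjusted p = 0.514). Against input the difference, 0.29, did not pass. Atg9a had 8.69 on both IP arrays, against 9.46 in IgG and 8.89 in input. Like Ulk1, it was lowest in the IP and highest in IgG, and it fell by 0.77 on the log2 scale against IgG (limma adjusted p = 0.00785), with a difference of -0.20 from input that did not pass. The other 3 genes of this group differed from IgG by 0.07 for Atg2a to 0.25 for Wipi2, with Wipi1 at 0.19, and none passed with the deposited values. After quantile normalization again all 3 differences were below 0, and Atg2a (-0.64, limma adjusted p = 0.0139) and Wipi2 (-0.49, limma adjusted p = 0.0298) fell. Wipi2, which reads PI3P and brings in Atg16l1, fell by 0.62 on the log2 scale against input (limma adjusted p = 0.0314), a call lost after quantile normalization again (limma adjusted p = 0.0626).

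The conjugation and processing genes held Atg4a, the widest difference from IgG. Against IgG 3 of 10 rose and none fell, where 36.1% of tested genes rose and 21.2% fell, which became 4 and 4 under quantile normalization again. Against input none rose and 5 fell, where 15.9% of tested genes fell, and 2 fell after quantile normalization again. Atg4a (Entrez 666468), a protease that trims Atg8 proteins and frees them from lipid, had 7.43 and 7.44 in the IP, against 4.50 in IgG and 8.59 in input. The IP replicates were close together, far above IgG and clearly below input. Atg4a rose over IgG by 2.93 ± 0.12 (7.64-fold, limma adjusted p = 0.00159) and fell by 1.16 on the log2 scale against input (limma adjusted p = 0.0108). It was the only member with a 4-fold or greater excess over IgG in each replicate. Atg4a was also the member with the lowest IgG value relative to input, with a difference of -4.09. That single IgG value, 4.50, lay near the IgG array's median of 4.49 over all probe sets.

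Among the related proteases, Atg4d had 7.57 and 7.35 in the IP, against 7.61 in IgG and 8.50 in input. The IP and IgG values lay together below input: Atg4d differed from IgG by -0.14, which passed only after quantile normalization again (-0.86, limma adjusted p = 0.0358), and fell by 1.04 on the log2 scale against input (limma adjusted p = 0.0173), a call lost after quantile normalization again (limma adjusted p = 0.0677) and with ties kept in the prior (limma adjusted p = 0.127). Atg4b fell by 0.95 on the log2 scale against input (limma adjusted p = 0.0203; after quantile normalization again 0.06) and differed from IgG by 0.42 (limma adjusted p = 0.0724), or -0.23 after quantile normalization again. Atg4c held 4.54 on the IP and IgG arrays, against 4.56 in input, and rose over IgG after quantile normalization again (0.30, limma adjusted p = 0.0338). So 3 of the 4 Atg4 proteases fell against input with the deposited values, where 15.9% of all tested genes fell. After quantile normalization again 1 fell, Atg4a, where 10.4% of all tested genes did.

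The promoters of Atg4a and Atg4d are shown because these proteases, both below input, were the only ones of 27 members with a promoter window that held an AGATAA motif, the core bound by GATA factors. Each window runs from 250 bases before to 50 bases after a start site in RefSeq (GRCm38.p6, plus strand). Lower case is sequence, and capitals mark matches to AGATAA or to CCACACCC, the CACCC box bound by Klf-type factors, on either strand.
Atg4d, chr9:21265035-21265334: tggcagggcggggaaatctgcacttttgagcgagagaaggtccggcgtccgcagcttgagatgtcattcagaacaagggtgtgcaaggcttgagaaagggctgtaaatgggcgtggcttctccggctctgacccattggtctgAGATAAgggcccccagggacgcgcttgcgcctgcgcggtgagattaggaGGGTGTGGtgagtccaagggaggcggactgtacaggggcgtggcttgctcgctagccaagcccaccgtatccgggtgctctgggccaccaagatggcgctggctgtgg
Atg4a, upstream start, chrX:140953595-140953894: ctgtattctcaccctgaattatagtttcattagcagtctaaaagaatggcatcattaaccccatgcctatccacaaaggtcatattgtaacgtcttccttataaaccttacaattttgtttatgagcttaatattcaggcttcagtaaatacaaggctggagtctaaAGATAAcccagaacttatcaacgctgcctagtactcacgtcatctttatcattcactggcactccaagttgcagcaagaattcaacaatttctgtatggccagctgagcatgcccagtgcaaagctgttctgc
Atg4a, downstream start, chrX:140956657-140956956: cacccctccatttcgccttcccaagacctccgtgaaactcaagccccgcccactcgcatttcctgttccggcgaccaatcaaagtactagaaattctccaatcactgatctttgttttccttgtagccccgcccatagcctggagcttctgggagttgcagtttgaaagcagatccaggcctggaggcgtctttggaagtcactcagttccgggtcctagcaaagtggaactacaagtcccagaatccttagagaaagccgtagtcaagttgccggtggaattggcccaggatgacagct

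In Atg4d the AGATAA match begins 107 bases and the CACCC match 58 bases before the start. In Atg4a the match begins 83 bases before the upstream start, and the downstream window holds none. Over the 30 windows that RefSeq gave for 27 members, AGATAA was in 2, 6.67%, where 11.2% of all 32851 windows held it. CACGTG, the E-box core bound by Tfeb, was in 5 (Atg3, Atg5, Atg7, Atg14 and Bnip3), 16.7% against 7.15%. CCACACCC was in Atg4d and Ulk2, 6.67% against 3.56%. TGACNNNGC, the antioxidant response core, was in Atg13, Map1lc3b and Ulk2, 10.0% against 12.4%. No 2 matches overlapped in the windows shown. The arrays measured RNA, and the motifs are a description of these windows only.

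Atg3 (Entrez 67841), the E2-like enzyme that passes Atg8 proteins to lipid, had 7.43 on both IP arrays, against 5.57 in IgG and 7.43 in input. Only the IgG array was low, and Atg3 rose over IgG by 1.86 ± 0.12 (3.63-fold, limma adjusted p = 0.00169) with a difference of 0.00 from input. Atg5, which joins Atg12 in the E3-like conjugate, had 6.12 and 6.16 in the IP, against 4.99 in IgG and 6.60 in input. Its rise over IgG was 1.15 ± 0.12 (2.22-fold, limma adjusted p = 0.00327). The difference from input, -0.46, did not pass (limma adjusted p = 0.0614). Its partner Atg12 showed another pattern, with 5.85 on both IP arrays and on the IgG array, against 6.93 in input. Both precipitates were level and below input, and Atg12 fell by 1.09 on the log2 scale against input (limma adjusted p = 0.0114). After quantile normalization again it fell against IgG as well (-0.42, limma adjusted p = 0.0241).

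None of the other conjugation genes passed against IgG with the deposited values. Atg7, the E1-like enzyme, held 6.61 on both IP arrays and on the IgG array, against 6.77 in input, and fell against IgG after quantile normalization again (-0.64, limma adjusted p = 0.0138). Atg16l1, which brings the conjugate to the membrane, differed from IgG by 0.00, or -0.61 after quantile normalization again (a fall, limma adjusted p = 0.0147), and fell by 0.54 on the log2 scale against input (limma adjusted p = 0.0409; after quantile normalization again 0.0525). Atg10, the E2-like enzyme for Atg12, had 4.89 and 4.39 in the IP, against 4.08 in IgG and 4.35 in input. Its IgG value lay below that array's median of 4.49 over all probe sets, and its input value near that array's, 4.13. The differences of 0.56 from IgG and 0.29 from input did not pass. Atg10 was 0.81 and 0.31 above IgG in the IP replicates, and 0.54 and 0.04 above input.

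**Figure D3:**
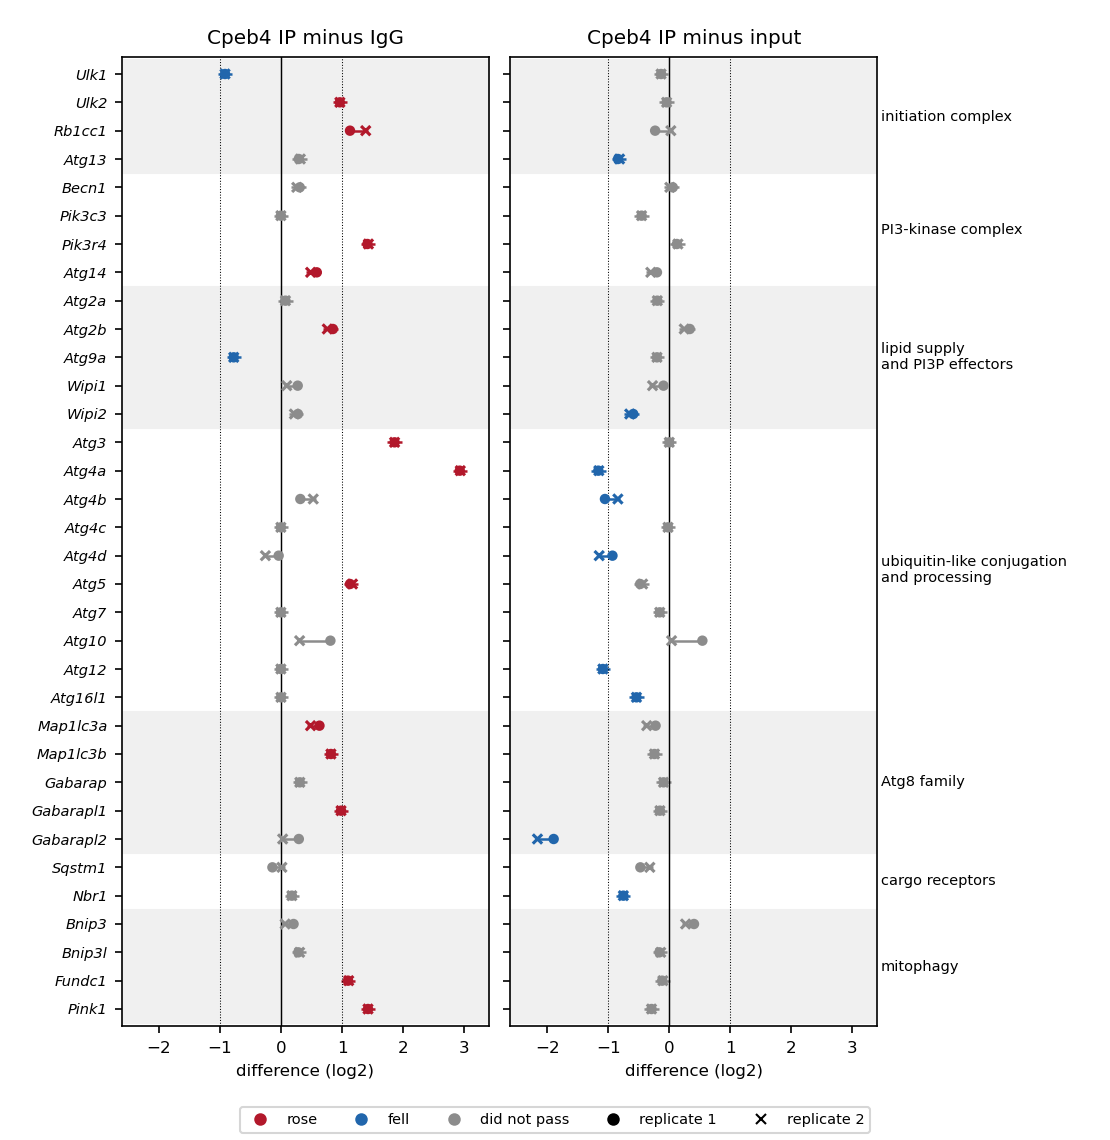
Differences between each Cpeb4 IP replicate and the IgG array (left) or the input array (right), on the log2 scale. Bars give 1 SE around the mean from limma, and dotted lines mark 2-fold. Where the IP replicates were equal, the SE combined the spread of other genes with a spread of 0 for the gene, which made it smaller. Red marks members that rose and blue those that fell at an adjusted p below 0.05: 13 and 2 against IgG, 0 and 9 against input.

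The Atg8 family holds the ubiquitin-like proteins that coat the autophagosome and hold cargo receptors. Over IgG 3 of its 5 genes rose and none fell, where 36.1% of all tested genes rose and 21.2% fell. At or above the 60th percentile of level 51.3% of tested genes rose. Against input 1 of 5 fell, where 15.9% of all tested genes did. In all 5 both IP replicates lay above IgG and below input, although the direction against IgG turned for Gabarapl2 after quantile normalization again (difference -0.32). Map1lc3b (LC3B), the usual marker of autophagosomes, had 9.91 on both IP arrays, against 9.09 in IgG and 10.15 in input. The rise over IgG was 0.82 ± 0.12 (1.76-fold, limma adjusted p = 0.00679), or 0.35 after quantile normalization again, with a difference of -0.24 from input that did not pass. Map1lc3a (LC3A) had 5.16 and 5.02 in the IP, against 4.53 in IgG and 5.39 in input. Its IgG value lay near that array's median of 4.49 over all probe sets. The rise over IgG was 0.56 ± 0.13 (limma adjusted p = 0.0262), a call lost with ties kept in the prior (limma adjusted p = 0.108).

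The GABARAP branch, which acts in later autophagosome closure, was uneven. Gabarapl1 had 7.68 on both IP arrays, against 6.70 in IgG and 7.84 in input, and rose over IgG by 0.99 ± 0.12 (1.98-fold, limma adjusted p = 0.00449), or 0.28 after quantile normalization again. Gabarap had 11.57 on both IP arrays, against 11.26 in IgG and 11.67 in input. Its difference of 0.31 from IgG did not pass with the deposited values (limma adjusted p = 0.0876) and passed after quantile normalization again (limma adjusted p = 0.0309). Gabarapl2 (Entrez 93739) had 6.26 and 6.0 in the IP, against 5.97 in IgG and 8.16 in input. Both precipitates were far below input, and the IP replicates stood just above IgG. Gabarapl2 fell by 2.03 on the log2 scale against input (4.07-fold lower, SE 0.16, limma adjusted p = 0.00944), the furthest fall among the members, though not past the threshold with ties kept in the prior (limma adjusted p = 0.0832). The members at least 2-fold below input in both replicates were 3 of 34, Gabarapl2, Atg4a and Atg12, 8.82% where 5.18% of tested genes were. At or above the 60th percentile of level 7.13% of tested genes were. Family members are similar in sequence, and whether probes of one read RNA of another was not tested.

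The cargo receptors Sqstm1 (p62) and Nbr1, which link ubiquitin-marked cargo to Atg8 proteins, did not pass against IgG with the deposited values. Sqstm1 had 9.84 and 9.99 in the IP, against 9.98 in IgG and 10.31 in input. The IP replicates lay on either side of IgG, and the difference of -0.40 from input did not pass (limma adjusted p = 0.114). Nbr1 had 8.22 on both IP arrays, against 8.04 in IgG and 8.97 in input. Nbr1 differed from IgG by 0.18, or -0.50 after quantile normalization again (a fall, limma adjusted p = 0.0183), and fell by 0.75 on the log2 scale against input (limma adjusted p = 0.0201).

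Among the 4 mitophagy genes, Pink1 and Fundc1 rose over IgG, where 36.1% of all tested genes rose. None of the 4 passed against input, where 10.2% of all tested genes rose and 15.9% fell. Pink1, the kinase that marks damaged mitochondria, had 7.29 on both IP arrays, against 5.87 in IgG and 7.58 in input. It rose over IgG by 1.43 ± 0.12 (2.69-fold, limma adjusted p = 0.00222), with a difference of -0.29 from input. Fundc1, a receptor of the outer mitochondrial membrane, had 5.64 and 5.65 in the IP, against 4.54 in IgG and 5.76 in input. It rose over IgG by 1.10 ± 0.12 (2.15-fold, limma adjusted p = 0.00347), with a difference of -0.11 from input. In both genes the IgG array alone was low, and for Fundc1 its value lay near that array's median of 4.49 over all probe sets.

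The BNIP3 pair did not pass against either control with the deposited values. Bnip3l had 9.28 and 9.30 in the IP, against 8.99 in IgG and 9.44 in input. Its differences were 0.30 ± 0.12 from IgG (limma adjusted p = 0.0984) and -0.15 ± 0.12 from input (limma adjusted p = 0.475), and the first was -0.22 after quantile normalization again. With ties kept in the prior Bnip3l passed against IgG (limma adjusted p = 0.0319). Bnip3 had 7.96 and 7.82 in the IP, against 7.75 in IgG and 7.56 in input. Both replicates lay above both controls, but the differences of 0.14 from IgG and 0.34 from input did not pass (limma adjusted p = 0.433 and 0.152), and the first was -0.58 after quantile normalization again, where Bnip3 fell (limma adjusted p = 0.0445).

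The IgG array read lower than input for 31 of 34 members. At least 2-fold lower in IgG than in input were 14 of 34 members, 41.2%, where 23.9% of tested genes were, and 0 were at least 2-fold higher, where 7.93% of tested genes were. Among tested genes at or above the 60th percentile of level, 34.4% were at least 2-fold lower. In each IP replicate 7 of 34 members exceeded IgG by 2-fold or more, 20.6%, where 18.6% of tested genes did. At or above the 60th percentile of level 27% of tested genes did. The 7 members were Atg3, Atg4a, Atg5, Pik3r4, Rb1cc1, Fundc1 and Pink1. For each of these 7 the IgG value was also more than 2-fold under the input value, by a log2 difference of -1.22 for Fundc1 up to -4.09 for Atg4a. No member was at least 2-fold below IgG in both replicates, where 6.24% of tested genes were. IgG and input were single arrays, so these are differences by size with no test. After quantile normalization again 9 members were at least 2-fold lower in IgG than in input and 3 were higher.

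**Figure D4:**
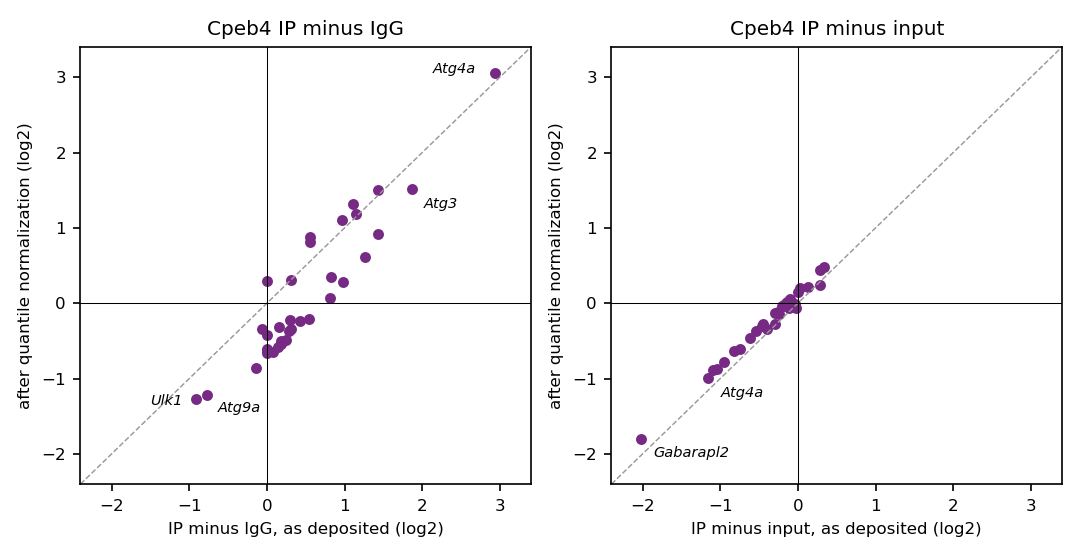
Each point is a member, with its IP minus IgG (left) or IP minus input (right) difference in the deposited values on the horizontal axis and after quantile normalization of the 4 arrays again on the vertical axis, both log2; the dashed line marks equal values. Against IgG many small positive differences became negative, and Atg4a (2.93 and 3.05) and Ulk1 (-0.91 and -1.26) kept their signs. Against input the points lie close to the line.

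The calls against IgG depended on this scaling in part. Of the 13 members that rose, 10 also rose after quantile normalization again, namely Atg3, Atg4a, Atg5, Pik3r4, Ulk2, Map1lc3a, Map1lc3b, Gabarapl1, Fundc1 and Pink1. Both members that fell, Ulk1 and Atg9a, also fell then. A further 11 members that had not passed with the deposited values fell and 2 rose. Against input, Atg4a, Atg12, Atg13, Gabarapl2 and Nbr1 fell under both scalings, and no member rose in either.

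Of 40 tested autophagy genes outside the list 21 rose and 3 fell against IgG, 52.5% and 7.5%, where 36.1% and 21.2% of all tested genes did. Of tested genes at or above the 60th percentile of level, where 37 of the 40 lie, 51.3% rose and 11.6% fell. Against input 4 rose and 8 fell, 10.0% and 20%, near the 10.2% and 15.9% of all tested genes. After quantile normalization again 12 rose and 16 fell against IgG, and 5 rose and 5 fell against input, where 9.79% and 10.4% of all tested genes did. None of 42 measured was at least 2-fold above both controls, where 2.49% of all tested genes were. Fundc2, a relative of Fundc1, had 9.64 and 9.67 in the IP, against 6.38 in IgG and 8.72 in input, and showed a rise of 3.27 over IgG (limma adjusted p = 0.00159) and of 0.94 over input (limma adjusted p = 0.014). Ei24, a protein of the endoplasmic reticulum, had 9.92 and 9.87 in the IP, against 7.54 in IgG and 8.93 in input, and showed a rise of 2.36 over IgG (limma adjusted p = 0.00159) and of 0.97 over input (limma adjusted p = 0.0134). Both stood above both controls in both replicates, unlike Fundc1, which lay below input.

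At the other end, Atg9b and Trp53inp2 fell against IgG by 0.72 and by 0.70 on the log2 scale (limma adjusted p = 0.00933 and 0.0133). Atg9b, the relative of Atg9a, had 4.15 and 4.13 in the IP, against 4.87 in IgG and 4.15 in input. Its IP and input values lay near those arrays' medians over all probe sets (4.15, 4.17 and 4.13). The IgG array's median was 4.49. After quantile normalization again Atg9b still fell (-0.49, limma adjusted p = 0.0195). Atg9a, which also fell, was at a much higher level, with 8.69 on both IP arrays. Calcoco1, a receptor for parts of the endoplasmic reticulum, fell against input by 1.55 on the log2 scale (limma adjusted p = 0.00921). Vmp1, a lipid scramblase of the same membrane, fell by 1.23 (limma adjusted p = 0.0107).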

How the data were processed

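RNA from Ter119-selected erythroblasts was measured on 4 arrays. The authors deposited 1 log2 expression value for each probe set on each array. The submitters' processing notes list RMA and affy without versions, and other steps are not given in the sources used here. Probe sets carry Entrez numbers, and of 25206 the array's annotation gave 23185 a single symbol, 0 several and 2021 none.

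Genes with a 4-array mean at or above the 40th percentile (log2 value 3.84) were tested, 13911 in all. Differences were fitted with limma 3.58.1 in R 4.3.3, with 3 groups and 1 residual degree of freedom. The 2 IP replicates had equal values (within 1e-09) in 3032 tested genes, so the prior spread (SD 0.110, 3.07 degrees of freedom) came from the other 10879. The fit was checked on simulated data with and without such ties. The simulated noise of all 4 arrays came from IP replicate differences, so the check could not test how the control arrays vary. Benjamini-Hochberg adjustment ran over all tested genes, with a threshold of 0.05. Single control arrays were assumed to vary like the IP replicates. An exact permutation test of 2 arrays against 1 cannot give a p below 0.333. Size calls required 2-fold in both IP replicates.

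Members, role groups, lists and the tie-free prior were chosen with earlier results of these data known. Values on every array are given for members past the size call, the Atg8 family, the mitophagy genes and, in each other role group, the members with the highest and lowest IP minus IgG. Of the other autophagy genes, the 2 highest and 2 lowest in each comparison are named. The alternatives were other filters, quantile normalization again, other prior settings, other thresholds and each IP replicate left out. Motifs were searched on both strands.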

Additional observations from a re-analysis of the deposited data

How the results depend on the processing

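Each control was a single array and the IP had 2, so array number limits precision throughout, and no detection calls were used. No paired analysis was possible because the controls have 1 array each and share fewer than 2 replicate numbers with the IP. With 1 IP replicate left out no spread remains, so calls by limma could not be repeated there. After quantile normalization again the members called were 25 against IgG (main 15) and 5 against input (main 9). Of all tested genes 31.4% were then called higher and 29.6% lower against IgG, and 9.79% higher and 10.4% lower against input. Members by size against input were then 1 (main 3), and the medians were -0.22 against IgG and -0.065 against input. Against input plain eBayes called 14 and eBayes with trend and robust 15. At 1.5-fold 13 members differed from IgG and 8 from input, at 4-fold 1 and 0, and at 4-fold 2 differed between IgG and input. Shares of all tested genes at these prior settings and thresholds are not given here, so these counts describe the members only. Above or below both controls 0 members stayed 2-fold apart under every planned setting; as an alternative chosen after seeing the data, without the IgG array 3 were lower than input and without the input array 7 were higher than IgG. Without each IP replicate in turn the median was 0.30 to 0.31 against IgG and -0.22 to -0.20 against input, and the size counts were 7 and 4. After quantile normalization again the direction turned for 12 members against IgG, among them Gabarapl2 (-0.32), Nbr1 (-0.50), Bnip3 (-0.58) and Bnip3l (-0.22), the others being Atg2a, Atg4b, Atg13, Atg14, Atg16l1, Becn1, Wipi1 and Wipi2, and for Ulk1 (0.021) and Rb1cc1 (0.058) against input. The cause was not tested. The filters, the adjusted p of 0.1 and, also added later, centring on the median of all tested genes kept each member count within 1.5 times.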

Other observations

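Genes that control autophagy or make the lysosome, from the same list of further autophagy genes, included some above both controls. Those named here were chosen after their values were seen. Of the 42 further genes measured, 12 lay above both controls in both replicates by any amount, 28.6%. The share was 20.5% over all tested genes and 27.1% over those at or above the 60th percentile of level. Lamp1, a lysosomal membrane protein, had 10.50 and 10.48 in the IP, against 9.65 in IgG and 9.59 in input. Its rise was 0.84 over IgG (limma adjusted p = 0.0064) and 0.89 over input (limma adjusted p = 0.0149). Trp53inp1, a stress protein that binds Atg8 proteins, had 9.39 on both IP arrays, against 8.96 in IgG and 8.50 in input. Its rise was 0.43 over IgG (limma adjusted p = 0.0382; -0.09 after quantile normalization again) and 0.89 over input (limma adjusted p = 0.0149). With Fundc2 and Ei24 these were the 4 further genes that rose against input, 10.0% of the 40 tested. Among all tested genes 10.2% rose there, and 12.9% of those at or above the 60th percentile of level. Mtor, the kinase that holds autophagy back, rose by 0.67 over IgG (limma adjusted p = 0.0122; -0.07 after quantile normalization again), and its difference of 0.32 from input did not pass. The transcription factors Tfeb and Tfe3, which switch on lysosomal genes, passed against neither control with the deposited values, with differences of -0.12 and -0.05 from IgG that were 0.20 and -0.78 after quantile normalization again, where Tfe3 fell (limma adjusted p = 0.0153). Foxo3, a transcription factor of autophagy genes in red cell precursors, held 9.18 on both IP arrays and on the IgG array, against 9.89 in input, and fell by 0.70 on the log2 scale against input (limma adjusted p = 0.023). After quantile normalization again Foxo3 fell against IgG as well (-0.49, limma adjusted p = 0.0173).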
